A study of Mus musculus with 6 samples.

Results

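The 39 genes described here carry out DNA replication or supply its building blocks, the deoxynucleotides. They were chosen as a list of names by function and not by any measured value, though earlier results of these data were known. All 39 were measured, among 18193 genes in all. Gene expression was measured in myospheres, which are cell clusters that float in culture. Their cells came from the hind-leg muscle of male Balb/c mice and were sorted by flow cytometry for the surface antigen Sca1. The labels give no age and no second condition. The cells were cultured for 4 days in NeuroCult, a neural stem cell medium, with LIF, B27, EGF and a supplement spelled bf6f, and RNA was taken at passage 1 from 2000000 cells. Replicates 1, 2 and 3 were each hybridised to 2 Affymetrix chips, MOE430A and MOE430B, which gave 6 arrays. The design text counts 1 sample with 6 replicates, so the replicates may be repeat measurements of one RNA, and every p-value here measures only the spread between these arrays, which may be technical.

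Replication starts at origins bound by the origin recognition complex, Orc1 to Orc6. Cdc6 and Cdt1 then load the ring-shaped helicase made of Mcm2 to Mcm7, and geminin (Gmnn) holds Cdt1 back so that each origin is used only once in a cycle. In S phase Cdc45, the GINS complex and Mcm10 activate the helicase, polymerases copy the strands on the sliding clamp PCNA, replication protein A covers single-stranded DNA, and Fen1 and DNA ligase I join the short fragments of the lagging strand. Ribonucleotide reductase, thymidylate synthase, thymidine kinase and dUTPase keep deoxynucleotides available and uracil out of DNA. Many of these genes are known targets of E2F transcription factors and are most active in dividing cells.

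The question the single condition allows is which of these genes gave a signal above background. The background limit of an array was the 95th percentile of its probe sets for genes of other tissues, such as odorant receptors, defensins and protamines. For replicates 1, 2 and 3 it was 819, 783 and 821 signal units on MOE430A, and 3294, 2952 and 2578 units on MOE430B. Above the limit means here that a probe set passed it on each of the 3 arrays of its chip, and for a gene that 1 or more of its probe sets did so. By this rule 2.63% of the reference probe sets passed on MOE430A and 4.76% on MOE430B. These low shares follow from setting the limit on the same probe sets, and they do not measure how often the rule errs. Separately, limma tested each probe set's log2 distance to the limit against the spread between the 3 arrays, with Benjamini-Hochberg adjustment over the chip. The precision is limited by the number of arrays, 3 for each chip, and the test leaves out the error of the limit itself. In bulk RNA, fewer cells that express a gene and less RNA per cell cannot be told apart.

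Of the 39 genes, 21 were above the limit, where 36.1% of all measured genes were. They included the clamp Pcna, most of the helicase ring, both genes of Okazaki fragment joining and most of nucleotide supply. None of the 6 origin recognition genes was above it. Genes with more probe sets pass more readily, so the counts were also split by their number. Among the 10 replication genes with 1 probe set 5 were above, where 22% of all such genes were. Of the 15 with 2 probe sets 7 were above, against 42.2% of all such genes, and of the 14 with 3 or more probe sets 9 were above, against 59.1%. With 2 or more probe sets, the counts lie near the shares of all genes. On MOE430A alone 20 of 38 were above, where 42.7% of all genes on that chip were.

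By limma 20 of the 39 were above the limit with at least 1 probe set, compared with 33.3% of all genes. All 20 are among the 21 above, and the gene that limma did not call is Pold1. With every probe set below the limit were 5 genes, Pole, Rfc3, Rfc4, Rpa2 and Tyms, where 44% of all genes were. The other 14 passed in neither direction. Of the 18 genes not above by the first rule, 9 exceeded the limit on some arrays and 9 on none. The 87 probe sets of the 39 genes were 72 on MOE430A, of which 25 were above where 35.6% of all probe sets were, and 15 on MOE430B, of which 1 was above where 13.4% were.

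**Figure D1:**
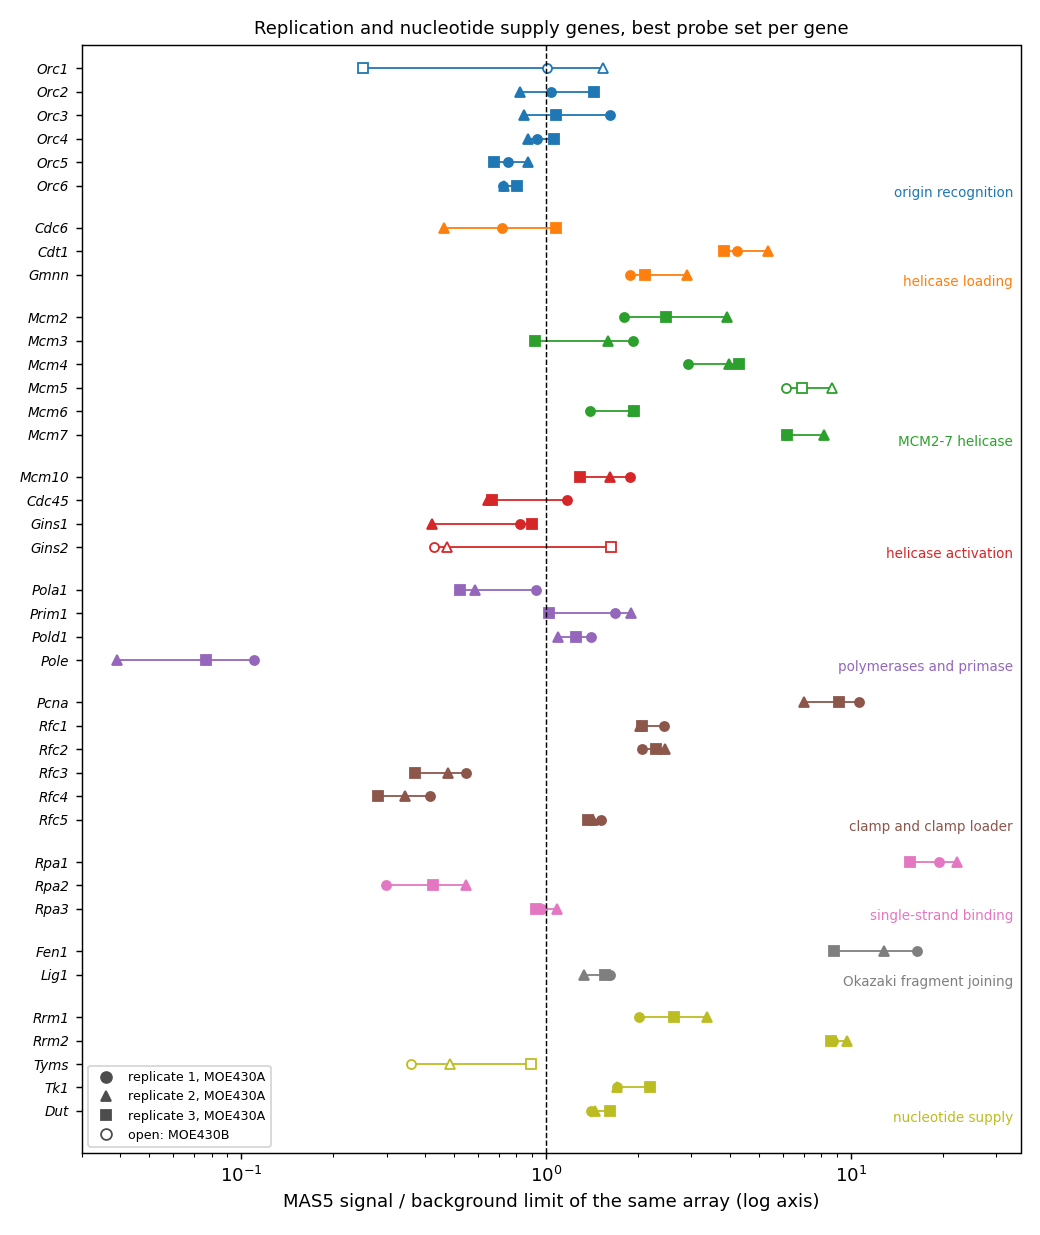
Signal on each array as a multiple of that array's background limit (log axis), for the probe set of each of the 39 genes with the largest fitted log2 distance to the limit, with genes ordered by role. The dashed line marks the limit. All 3 arrays of Pcna lie between 7.0 and 10.6 times the limit, and Orc1 to Orc6 have at least 1 array below the line.

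Several culture markers lay beside these results, to be read against the 36.1% of all measured genes that were above the limit. Of 7 measured genes of cycling cells 6 were above the limit, among them Mki67 at 1918, 1547 and 1715 units, Top2a at 1778, 1674 and 1618 units, and Cdk1 at 2919.9, 2057 and 2306 units in replicates 1, 2 and 3. All 6 fibroblast and mesenchymal markers were above it, with Pdgfra at 12016, 13582 and 12602 units. None of the 6 markers of muscle stem cells and myoblasts, which include Pax7, Myf5, Myod1 and Myog, was above on all 3 arrays. Myod1, at 1074, 605 and 1062 units, was under the limit in replicate 2 only. Myog, at 730, 1332 and 1468 units, was under it in replicate 1 only. Limma called 3 of the 6 below the limit. Above the limit were also 1 of 4 endothelial, 2 of 5 macrophage and leukocyte, 1 of 4 neural and 2 of 4 pericyte and smooth muscle markers. The part of each cell type in the signal of the replication genes was not tested. Sca1's own gene was not analysed here. The ratio of the 3′ to the 5′ control probe set was 11.9 to 16.5 for Gapdh and 8.55 to 13.4 for beta-actin over the 6 arrays, and its part in the low probe sets was not tested.

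A sequence feature that the choice of the 39 genes did not use was more frequent among them than among all genes, though most of those with a promoter window lack it. The RefSeq promoter table of GRCm38.p6, with 250 bases before to 50 bases after each gene's start, held 33 of them in 40 windows. Gmnn, Mcm4, Gins1, Gins2, Pole and Rfc2 are not among the 33. The search was for 4 forms of the E2F binding motif, TTTCCCGC, TTTCGCGC, TTTGCCGC and TTTGGCGC, on both strands. At least 1 form was present for 12 of the 33 genes (36.4%), compared with 2.6% of 27025 genes in the table and 3.81% of 14452 genes measured on these chips. By window the shares were 30% of 40 and 2.26% of 32851. The motif CCAAT, searched on both strands, was present for 21 of the 33 (63.6%), against 41.1% of all genes. A form of the E2F motif overlapped a CCAAT in the window of Mcm7 only, of the 40. Below are 8 genes whose stretches show the motif in the promoters of the loading step, the helicase ring and ligation, 5′ to 3′ on the strand of the gene, with the E2F motif on either strand in capitals.

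Mcm3: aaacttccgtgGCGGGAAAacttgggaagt
Mcm5: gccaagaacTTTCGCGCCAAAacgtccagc
Mcm6: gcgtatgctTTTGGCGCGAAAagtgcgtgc
Mcm7: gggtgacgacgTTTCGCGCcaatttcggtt
Cdt1: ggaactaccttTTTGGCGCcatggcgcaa
Cdc6: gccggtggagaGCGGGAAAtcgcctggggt
Orc1: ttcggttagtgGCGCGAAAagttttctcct
Lig1: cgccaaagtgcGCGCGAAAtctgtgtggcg

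In Mcm5 (chr8:75109347-75109376, plus strand) and Mcm6 (chr1:128359795-128359824, minus strand) the capitals are 2 forms that overlap on opposite strands. Their motifs begin 153 and 110 bases before the gene's start. The stretch of Mcm3 is at chr1:20820275-20820304 (minus strand), that of Mcm7 at chr5:138171849-138171878 (minus), that of Cdt1 at chr8:122568036-122568064 (plus), that of Cdc6 at chr11:98908002-98908031 (plus), that of Orc1 at chr4:108579416-108579445 (plus) and that of Lig1 at chr7:13278841-13278870 (plus). In Orc1 and Cdc6 the motif begins 27 and 138 bases before the start. In Mcm7, Cdt1, Mcm3 and Lig1 it lies 16, 32, 19 and 26 bases after the start, in the transcribed part. The other 4 genes with a form of the motif are Orc3, Pola1, Pold1 and Rfc3. Among the 33 genes the motif was present for 6 of 18 above the limit and for 6 of 15 not above it. Among all measured genes it was present for 4.76% of those above and 3.24% of those not above. A match of letters is a description and shows no binding.

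The 6 origin recognition genes encode the subunits of the complex that marks origins, and none of their 14 probe sets was above the limit on all 3 arrays. Orc1, the largest subunit, gave its higher signal relative to the limit on MOE430B, with 3321, 4540 and 649 units in replicates 1, 2 and 3. Its signal was over the limit in replicates 1 and 2 and at 0.252 times the limit in replicate 3. With replicate 3 left out, Orc1 was above the limit on both remaining arrays, which follows from these values. Limma did not call it above there (adjusted p = 0.258). On MOE430A its other probe set gave 328, 531 and 277 units, below the limit on every array. Orc2 gave 850.4, 644 and 1184 units with the best of its 3 probe sets, and Orc3 gave 1330, 662 and 888 units. Both lay under the limit in replicate 2 only, so they were above it with that replicate left out. Limma called neither above there (adjusted p = 0.231 for Orc2 and 0.122 for Orc3). Orc4 had a probe set at 541, 951 and 853 units, under the limit in replicate 1 only and so above it with that replicate left out. Limma did not call Orc4 above there (adjusted p = 0.5). The single probe sets of Orc5, at 614, 682 and 553 units, and of Orc6, at 589.9, 571 and 659 units, were below the limit on all 3 arrays, and limma called neither below it (adjusted p = 0.101 and 0.0819).

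Helicase loading was represented above the limit by Cdt1 and Gmnn, and not by Cdc6. For Cdt1, the loading factor, the 3 probe sets disagreed. An _a_at set gave 3451, 4187 and 3161 units in replicates 1, 2 and 3, which is 3.85 to 5.34 times the limit (log2 distance 2.15 ± 0.12 SE, limma adjusted p = 1.99e-06). A second set gave 1423, 832 and 1138 units, also above on each array, and the third 47.8, 23.8 and 34.3 units, at most 0.0584 times the limit. Gmnn, which inhibits Cdt1, had 1544, 2266 and 1729 units, above the limit on every array (1.17 ± 0.14 SE, limma adjusted p = 0.00024). Cdc6, the ATPase that works with Cdt1, had 588, 363 and 887 units and passed the limit only in replicate 3 (limma adjusted p = 0.13).

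Of the helicase ring Mcm2 to Mcm7, 5 of 6 genes were above the limit and Mcm3 was not, by 7 of 19 probe sets. The call rested on kinds of probe set. Affymetrix IDs ending in _a_at, _s_at or _x_at mark probes that match more than 1 transcript, and are called shared sequence here. In the case of _a_at these are transcripts of 1 gene, so the sequence is not shared between genes. Other IDs ending in _at are called a gene's own sequence here. Mcm4 was above by both kinds, with 2104, 1567 and 1799 units by its own sequence and 2399.6, 3112 and 3524 units by an _x_at set. All 6 of these values exceeded the limit (limma adjusted p = 8.99e-05 and 7.8e-06). The other 4 genes were above by shared sequence alone. Mcm2 had 1479, 3082 and 2035 units with its _s_at set (1.38 ± 0.20 SE, limma adjusted p = 0.00059), and 769, 574 and 511 units with its own sequence, under the limit on each array.

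The probe sets of Mcm5 parted between the chips. The _x_at set on MOE430B gave 20118, 25574 and 17759 units in replicates 1, 2 and 3, at 6.11 to 8.66 times the limit of that chip (2.84 ± 0.13 SE, limma adjusted p = 6.37e-10). It is the only 1 of the 15 probe sets on MOE430B that was above. Its own sequence on MOE430A gave 512, 366 and 440.3 units, all below the limit (limma adjusted p = 0.0126), and a further set on MOE430B gave 1529, 866 and 931 units, also below. Mcm6 was above with an _x_at set at 1142, 1510.4 and 1590.4 units (0.79 ± 0.14 SE, limma adjusted p = 0.00186). Its own sequence, at 311, 72.5 and 409 units, and another _x_at set on MOE430B, at 347, 688 and 916 units, were below the limit on each array. Mcm7 had 4 probe sets, all of shared sequence. An _s_at set gave 5009, 6400.1 and 5077 units, far over the limit on every array (2.76 ± 0.11 SE, limma adjusted p = 3.8e-07), and another gave 921, 861 and 1141 units, just over it. The other 2 exceeded it on 1 array each.

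Mcm3 was the exception among the ring genes by 1 array. Its _x_at set gave 1577, 1252 and 758 units and its _s_at set 922, 951 and 769.6 units in replicates 1, 2 and 3. Both passed the limit in replicates 1 and 2 and lay just under it in replicate 3, at 0.923 and 0.937 times the limit. With replicate 3 left out, Mcm3 was above the limit on both remaining arrays, which follows from these values. Limma called it above there (adjusted p = 0.00426). The 3 sets of its own sequence were below the limit on every array, between 173 and 617 units, and limma called all 3 below (adjusted p = 0.02, 0.00394 and 0.0119).

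Of the 4 genes that activate the helicase, only Mcm10 was above. Mcm10, which helps to start unwinding, had 1543, 1266 and 1061 units with an _a_at set (0.66 ± 0.15 SE, limma adjusted p = 0.00507). Its own sequence gave 112, 395 and 407 units on MOE430A and 484, 379 and 1539.6 units on MOE430B, below the limit on all 6 arrays. Cdc45, a subunit of the active helicase, had 962, 506 and 546 units on MOE430A, above the limit in replicate 1 only. Gins1, of the GINS complex, had 675, 332 and 741 units on MOE430A, below the limit throughout. Gins2, measured only on MOE430B, had 1417, 1394 and 4203 units with an _s_at set. It passed the limit only in replicate 3, and with that replicate left out limma called it below (adjusted p = 0.0242).

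Polymerase genes were divided 2 to 2. Prim1, the primase subunit that lays down RNA primers, gave 1375, 1488 and 842 units, above the limit on each array (0.57 ± 0.19 SE, limma adjusted p = 0.0263), and its _a_at set gave 389, 166 and 182 units, below it. Limma no longer called Prim1 above when replicate 1 or replicate 2 was left out (adjusted p = 0.0721 and 0.158), nor without the intensity trend (adjusted p = 0.0943). Pold1, the catalytic subunit of polymerase delta, had 1148, 859 and 1029.9 units, above the limit by 1.10 to 1.40 times, a distance that limma did not call (0.32 ± 0.15 SE, adjusted p = 0.0844). The _x_at set of Pold1 gave 512, 1152 and 954 units, under the limit in replicate 1 only. Pola1, the catalytic subunit of polymerase alpha, had 761, 459.6 and 430.3 units on MOE430A and 2001, 1737 and 2042 units on MOE430B, all below the limits. Pole, the catalytic subunit of polymerase epsilon, had 90.2, 30.7 and 63.2 units with its single _a_at set. That is at most 0.11 times the limit (limma adjusted p = 0.00035, below).

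The sliding clamp and 3 of the 5 subunits of its loader, replication factor C, were above. Pcna had 8704, 5486 and 7491 units in replicates 1, 2 and 3 with 1 probe set of its own sequence, at 7.0 to 10.6 times the limit (3.14 ± 0.13 SE, limma adjusted p = 3.65e-07). Rfc1, the large subunit, had 1999.7, 1592 and 1696 units (limma adjusted p = 9.49e-05), while 2 further probe sets were below the limit on every array. Rfc2 had 1688, 1929 and 1887 units with its own sequence (limma adjusted p = 5.81e-05), a narrow range above the limit. On MOE430B an _x_at set of Rfc2 gave 1234, 2215 and 2516 units, below the limit on every array. Another _x_at set there gave 3234, 4400 and 2904 units, under the limit in replicate 1 only. Rfc5 had 1245, 1121 and 1127 units (limma adjusted p = 0.00771), at 1.37 to 1.52 times the limit. Rfc3 and Rfc4 stayed below it with both kinds of probe set. Their highest sets gave 447, 375 and 304 units for Rfc3 and 341, 269.5 and 230.3 units for Rfc4 (limma adjusted p = 0.00789 and 0.00391).

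Replication protein A has 3 subunits, of which only the large one, Rpa1, was above. Its _a_at set gave 15947, 17469 and 12796 units, at 15.6 to 22.3 times the limit (4.24 ± 0.12 SE, limma adjusted p = 7.28e-08). Its own sequence gave 804, 737 and 919.9 units, over the limit in replicate 3 only. Rpa3, the small subunit, had 792, 849.8 and 763 units, within 10% of the limit on every array and above it in replicate 2 only (limma adjusted p = 0.946). Rpa2, the middle subunit, had 245, 429 and 351 units with its higher set, and limma called both of its sets below the limit (adjusted p = 0.00743 and 0.00263).

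Both genes of Okazaki fragment joining were above. Fen1, the nuclease that trims the flap ahead of ligation, had 13526, 10051 and 7249 units with an _x_at set, at 8.83 to 16.5 times the limit (3.62 ± 0.16 SE, limma adjusted p = 7.07e-07). Its _a_at set gave 312, 203 and 38.1 units, below the limit on each array (limma adjusted p = 0.00786). Both probe sets of Fen1 used here are thus of shared sequence. Lig1, DNA ligase I, had 1332, 1044 and 1283 units with its own sequence, all above the limit (0.59 ± 0.13 SE, limma adjusted p = 0.00539).

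Nucleotide supply had 4 of 5 genes above. Rrm2, the small subunit of ribonucleotide reductase, was above with all 3 of its probe sets. Its _x_at set gave 7154, 7598 and 7075 units in replicates 1, 2 and 3 (3.17 ± 0.09 SE, limma adjusted p = 6.91e-08), and its own sequence 1193, 1062 and 1465 units and 858, 1063 and 1095 units. Rrm1, the large subunit, had 1648, 2637 and 2157 units (limma adjusted p = 0.000126), above on each array, while its other sets were not above. Tk1, the thymidine kinase of S phase, had 1398, 1340.3 and 1807 units (limma adjusted p = 0.000624). Dut, the dUTPase, had 1149.9, 1131 and 1327 units with an _a_at set (limma adjusted p = 0.00544), while its own sequence gave 75.2, 40.3 and 46 units, at most 0.0918 times the limit.

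Tyms, thymidylate synthase, was the exception in that group. Its 3 probe sets on MOE430A ranged between 10.8 and 279 units, and the set on MOE430B gave 1185, 1428 and 2309 units, all below the limit. Limma called the 4 sets below it, the set on MOE430B with the smallest distance (-0.89 ± 0.35 SE, adjusted p = 0.03). That call was lost when replicate 1 or replicate 2 was left out (adjusted p = 0.161 and 0.0828) and without the intensity trend (adjusted p = 0.0921). A further probe set that the annotation gives to both Tyms and its pseudogene Tyms-ps was left out of these counts.

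**Figure D2:**
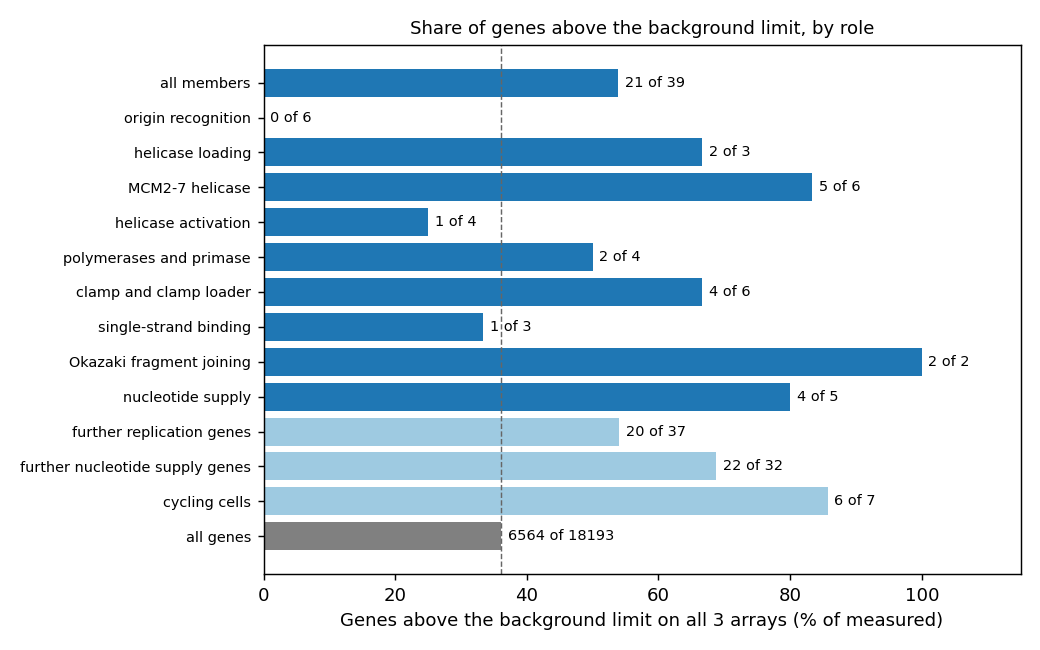
Percentage of measured genes above the background limit on all 3 arrays, for the 39 genes and each role (dark bars), other fixed lists (light bars) and all genes (grey bar and dashed line, 36.1%), with the counts beside the bars. The counts are 0 of 6 for origin recognition, 5 of 6 for the helicase ring and 4 of 5 for nucleotide supply.

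How far a call depended on the kind of probe set was counted over all members. Of the 21 genes above, 13 were so by at least 1 set of their own sequence. The other 8 (Mcm2, Mcm5, Mcm6, Mcm7, Mcm10, Rpa1, Fen1 and Dut) were above by shared sequence only. For Mcm10, Rpa1 and Dut this was an _a_at set, shared between transcripts of 1 gene and not between genes. Leaving out shared sequence left 13 of 35 measurable genes above, where 30.4% of all genes were. With only the _s_at and _x_at sets left out, a choice made after seeing the data, 16 of 39 were above (41.0%), near the 33.7% of all genes under the same setting. Mcm10, Rpa1 and Dut then stay above by _a_at sets. Of the 31 shared sets of these genes 12 were above (38.7%), and of the 56 own sets 14 (25%). Over all genes the shares were 40.2% of 7981 shared sets and 22.2% of 27060 own sets.

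Within genes that had both kinds the calls often parted. Of 20 replication genes with both, 3 were above by both kinds, 6 by shared sequence only (30%), 4 by own sequence only (20%) and 7 by neither. Of 4011 such genes in all, 909 were above by both, 795 by shared only (19.8%), 627 by own only (15.6%) and 1680 by neither. Over all kinds, 29 of the 39 genes had several probe sets, of which 2, Mcm4 and Rrm2, had every set above and 14 had some above and some not.

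**Figure D3:**
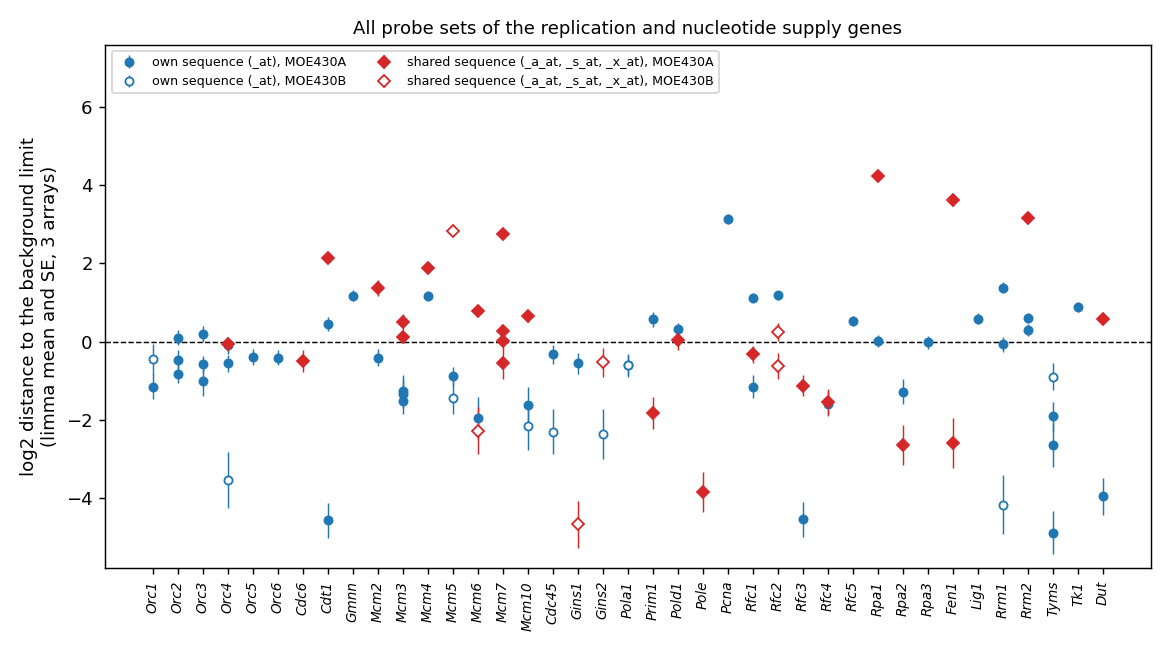
Log2 distance to the background limit of its chip for each of the 87 probe sets (limma mean and SE over 3 arrays), by gene. Circles are a gene's own sequence and diamonds shared sequence, filled for MOE430A and open for MOE430B. For Mcm5, Fen1, Rpa1 and Dut the highest point is a diamond, and the next point of Mcm5, Fen1 and Dut lies below the dashed line at 0.

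The remaining machinery of both processes was read from fixed lists of other genes, each given with its probe set of largest distance to the limit. Of 37 further replication genes 20 were above the limit, set beside the 36.1% of all genes, and limma called 16 above and 8 below, where it called 33.3% of all genes above and 44% below. Neither these counts nor those of further nucleotide supply genes were split by number of probe sets, so the shares of all genes are not matched for it. Gins4, of the GINS complex, was above with 1335, 1479 and 1206 units. Gins3, of the same complex, had 2429, 4007 and 4548 units on MOE430B and was under the limit in replicate 1 only. Pold2, the second subunit of polymerase delta, had 641, 941 and 864 units and was under it in replicate 1 only. Pola2, the second subunit of polymerase alpha, had 475, 621 and 567 units and was below on every array.

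Of 32 further genes of nucleotide supply 22 were above, against the 36.1% of all genes. Limma called 22 above, against 33.3% of all genes, and 6 below, against 44%. Dck, deoxycytidine kinase of the salvage route, was above with 2140.3, 1936 and 2010.4 units. Rrm2b, the other small subunit of ribonucleotide reductase, had 911, 623 and 1270.4 units and passed the limit in replicates 1 and 3. Tk2, the mitochondrial thymidine kinase, had 328, 303 and 523 units, all below it.

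Whether the replication genes differed between replicates could be tested little. The test, a limma moderated F-test with chip as a covariate, takes genes with a probe set on each chip whose mean over the 3 arrays is over the mean limit of the chip, and of the 39 only Rfc2 met this. Rfc2 did not pass by limma (adjusted p = 0.92), and 6 of 605 genes in the fit passed, or 0.992%, with 64 at an unadjusted p under 0.05. The 6 became 0 of 638 genes without replicate 1, 0 of 628 without replicate 2 and 5 of 578 without replicate 3, and Rfc2 passed in none of these. In a fit with no filter on low values 11 of the 39 entered, of which 0 passed and 1 had an unadjusted p under 0.05, and 0 of all 3807 genes passed. On MOE430A, 32 of the probe sets had a mean above the limit. The median of their log2 deviations from their own mean was -0.02 in replicate 1, 0.04 in replicate 2 and 0.01 in replicate 3, beside 0.02, -0.02 and 0.01 over 8308 probe sets in all. The median log2 SD over the 3 replicates was 0.23 for the 32 sets and 0.20 for all.

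Behind those medians near 0 the kinds of probe set moved in opposite directions in replicate 2. The 17 own sets had a median deviation of -0.16 in that replicate and were lowest there in 12 cases (70.6%). The 15 shared sets had a median of 0.12 and lay over their mean in 12 cases (80%). Those were all 7 of the _x_at sets, 2 of 4 _a_at sets and 3 of 4 _s_at sets. Over all probe sets of MOE430A the same signs held at smaller size, with a median of -0.05 for 5241 own sets (45.5% lowest in replicate 2) and 0.04 for 3067 shared sets. The 749 _x_at sets of all genes had a median of 0.11 and lay over their mean in 70.5% of cases. The other shared kinds lay nearer 0, with medians of 0.015 for 1674 _a_at sets and 0.014 for 644 _s_at sets. They lay over their mean in 52.0% and 52.8% of cases. On the MOE430B array of replicate 2 the medians were -0.07 for 2107 own sets, -0.06 for 525 shared sets and 0.01 for the 213 _x_at sets.

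The split appeared within some single genes, though not clearly in Rrm2. In replicate 2 the _x_at set of Rrm2 deviated by 0.06 and its own sets by 0.09 and -0.21. In replicate 2 the _a_at set of Cdt1 deviated by 0.23 and its own sequence by -0.41. For Pold1 the _x_at set deviated by 0.48 and its own sequence by -0.23, for Rpa1 the _a_at set by 0.19 and its own by -0.15, and for Mcm4 the _x_at set by 0.07 and its own by -0.21. These are descriptions of 1 array against 2 others and carry no test.

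**Figure D4:**
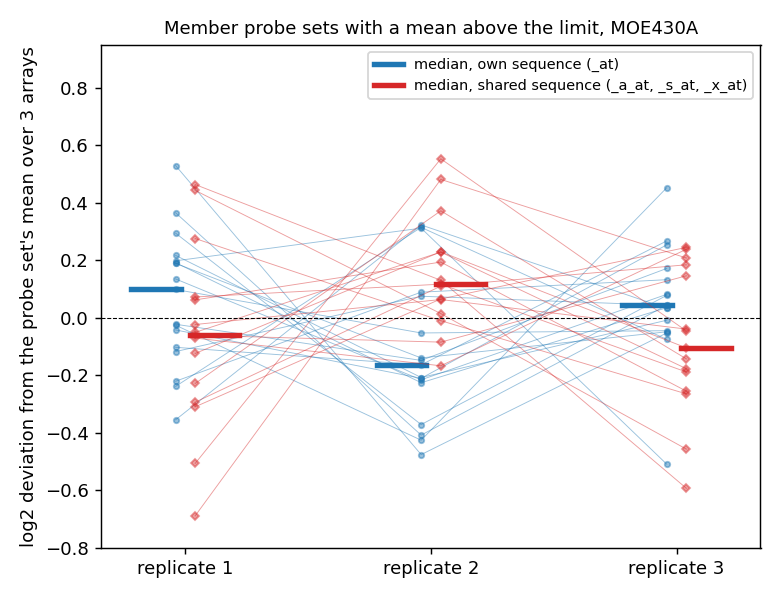
Log2 deviation of each of the 32 probe sets of MOE430A with a mean above the limit from its own mean, for replicates 1, 2 and 3. Thin lines join the values of a probe set, and thick bars are medians of own sequence and of shared sequence. In replicate 2 the median of own sequence is -0.16 and that of shared sequence 0.12.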

How the data were processed

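Signal intensity of Affymetrix MOE430A and MOE430B arrays was taken as deposited by the authors, on a linear scale, made with MAS5 per the submitters' processing notes (its version is not given in the sources used here). Each array had been scaled to the same level, a mean of 1500.2 to 1500.8 once the upper and lower 2% of probe sets were dropped. Probe sets with several gene symbols or none were left out. Probe sets of other tissues that set the background limit numbered 152 on MOE430A and 42 on MOE430B. Log2(signal) minus log2(limit) was fitted in limma 3.58.1 (R 4.3.3, lmFit and eBayes with intensity trend, two-sided, Benjamini-Hochberg over each chip, threshold 0.05), checked on simulated data. Counts and figures were made in Python 3.11.15 (matplotlib 3.10.9, pandas 2.3.3, numpy 2.4.6). Although all arrays were scaled to the same level, the limit differed between the chips, with a mean of 808 units on MOE430A and 2942 on MOE430B. No signal is therefore compared with the limit of the other chip.

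The 39 genes and the other lists were chosen with earlier results of these data known. Named are every one of the 39, the first 4 genes of each other list, and nothing else unless stated. Some listed genes, including a gene among the first 4 of its list, are not reported here. Alternatives were other limits, probe sets left out, another normalization, a pseudocount of 50, no intensity trend and each replicate left out.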

Additional observations from a re-analysis of the deposited data

Results flagged for a closer look

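A probe set that the comparisons did not use gave signal above the background. The annotation gives it to both Tyms and the pseudogene Tyms-ps, so it was left out of the counts of single genes. It had 2249, 1716 and 1745 units on the MOE430A arrays of replicates 1, 2 and 3, a mean of 1903 ± 299.7 (SD, n = 3), at 2.13 to 2.75 times the limit (limma log2 distance 1.23 ± 0.12 SE, adjusted p = 7.21e-05). The 4 probe sets given to Tyms alone were below the limit. With this probe set counted for Tyms, an alternative added after seeing the data, 22 of the 39 genes were above. The share of all genes under that alternative is not given, so the 22 cannot be set beside it.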

How the results depend on the processing

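The limit sets how many genes count. Counts of probe sets and of limma calls under the alternatives are given without a share over all genes. With the 99th percentile as limit 14 of the 39 genes were above (against 27% of all genes), as Mcm6, Mcm10, Prim1, Pold1, Rfc5, Lig1 and Dut were lost. There 15 probe sets were above, limma called 15 genes below, 12 further replication genes were above, and the distance turned negative for Orc2 (-0.40), Orc3 (-0.31) and Pold1 (-0.18). With the 90th percentile 26 genes were above (against 41.7% of all genes), as Orc2, Orc3, Orc4, Mcm3 and Rpa3 were gained. The distance turned positive there for Orc4 (0.23) and Rpa3 (0.28). With the array median as limit 29 genes (against 53.9% of all genes) and 40 probe sets were above, and limma called 2 genes below. The genes gained were Orc2, Orc3, Orc4, Mcm3, Gins2, Pola1, Rpa3 and Tyms. The distance turned positive with that limit for Orc1 (1.22), Orc4 (0.41), Orc5 (0.081), Orc6 (0.061), Cdc45 (0.15), Gins2 (1.14), Pola1 (1.06), Rpa3 (0.46) and Tyms (0.78). Without shared sequence 13 of 35 measurable genes (against 30.4% of all genes) and 14 probe sets were above. Limma then called 12 genes above and 10 below. In that setting 13 further nucleotide supply genes were above, and genes whose only sets are of shared sequence were not measured. There the distance turned negative for Mcm2 (-0.41), Mcm3 (-1.25), Mcm5 (-0.89), Mcm6 (-1.95), Mcm10 (-1.63) and Dut (-3.96). Mcm5 was also at -0.89 with 1 probe set per gene and on MOE430A alone. The choice of 1 probe set per gene takes MOE430A first, so both settings use the same set of Mcm5. The alternatives named so far altered only the limit or the set of probe sets, and why the probe sets of a gene differ was not tested. Leaving out 1 replicate gave 22 to 23 genes (against 37.5 to 38.6% of all genes) and 28 to 29 probe sets above. Limma then called 19 to 21 genes above and 4 to 6 below. Of the further genes, 20 to 22 of replication and 22 to 24 of nucleotide supply were above. In those fits 0 of the 1 gene of the 39 that could be tested, Rfc2, differed between replicates. The distance changed sign with 1 replicate left out for Orc1 (-0.99 to 0.32), Orc2 (-0.11 to 0.29), Orc3 (-0.065 to 0.41), Orc4 (-0.14 to 0.17) and Rpa3 (-0.077 to 0.035). Over the distances of single genes under these alternatives, 397 kept direction and call, 22 gained a call, 16 lost it and 28 changed sign. No paired analysis was possible because the replicate number is itself the factor tested and no comparison between groups was made.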
